A study of Mus musculus with 9 samples.

Results

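Mouse 3T3-L1 preadipocytes that received a full adipogenic hormone cocktail in medium with no added lysine (Lysfree) were compared with undifferentiated cells of the same line (Undifferentiated). The members were the 3 Lysfree and the 3 Undifferentiated libraries, and they made up 6 of the 9 libraries in the series. They were taken by their sample labels, with earlier results of these data known. Undifferentiated cells had been held at confluence for 3 days in DMEM with bovine calf serum, and they received no hormones. The sources used here do not state whether their RNA was taken at the start or the end of the induction period. Lysfree cells were taken through the same confluent period and then placed for 3 days in lysine-free DMEM with fetal bovine serum, added arginine, insulin at 10 μg/mL, rosiglitazone and dexamethasone at 1 μM each, and the phosphodiesterase inhibitor IBMX at 0.5 mM. Per the study, that medium still held a small amount of lysine before the cells were added. The 3 Differentiated libraries came from the same medium with lysine added, and they are used here to test where a change in Lysfree differed from that in complete medium. Hormones, serum, base medium and lysine all differed between Lysfree and Undifferentiated, and days in culture may have, so their parts in a change cannot be told apart within this comparison. 3T3-L1 is a clonal embryonic fibroblast line, and nothing in the labels says whether replicates were separate cultures, so the spread between them may be technical.

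Preadipocytes turn into fat cells through a relay of transcription factors. Dexamethasone acts through the glucocorticoid receptor, IBMX blocks the breakdown of cyclic AMP, insulin signals growth and nutrient supply, and rosiglitazone is a ligand of PPARγ, the master regulator of the fat cell programme. C/EBPβ and C/EBPδ come first, PPARγ and C/EBPα follow, and the genes of lipid storage come last, while the cells take down much of the fibroblast matrix around them. Lysine is an essential amino acid. Shortage of any amino acid leaves its tRNA uncharged, which is sensed by the kinase GCN2 and raises translation of ATF4, an activator of amino acid transport, amino acid synthesis and tRNA charging genes. Collagen and its crosslinks depend on lysine residues, and histones and ribosomal proteins are rich in them.

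Each library held between 15880144 and 21806693 counted reads, and the Lysfree libraries held between 16754573 and 18089153. Of 23994 genes tested, 1324 (5.52%) were DEGs that rose in Lysfree and 2102 (8.76%) were DEGs that fell, where a DEG had an adjusted p under 0.05 and at least a 2-fold change. Among the 13648 genes past the expression filter of edgeR these shares were 8.54% and 13.1%, which is the fairer background for lists of well-expressed genes. Counts of members called in each list below are to be read beside these shares. The median log2 fold change over all genes tested was -0.0152. Lysfree 1 stood apart from the other Lysfree libraries. Of the 13648 genes, 347 lay more than 1 below and 70 more than 1 above the mean of Lysfree 2 and 3 on the log2 scale, against 59 genes that differed this much between Lysfree 2 and Lysfree 3. Mitochondrially encoded genes took 1.6% of its counts against 0.879% and 0.906% in the other Lysfree libraries, and list counts are therefore also given without Lysfree 1 where they move.

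**Figure D1:**
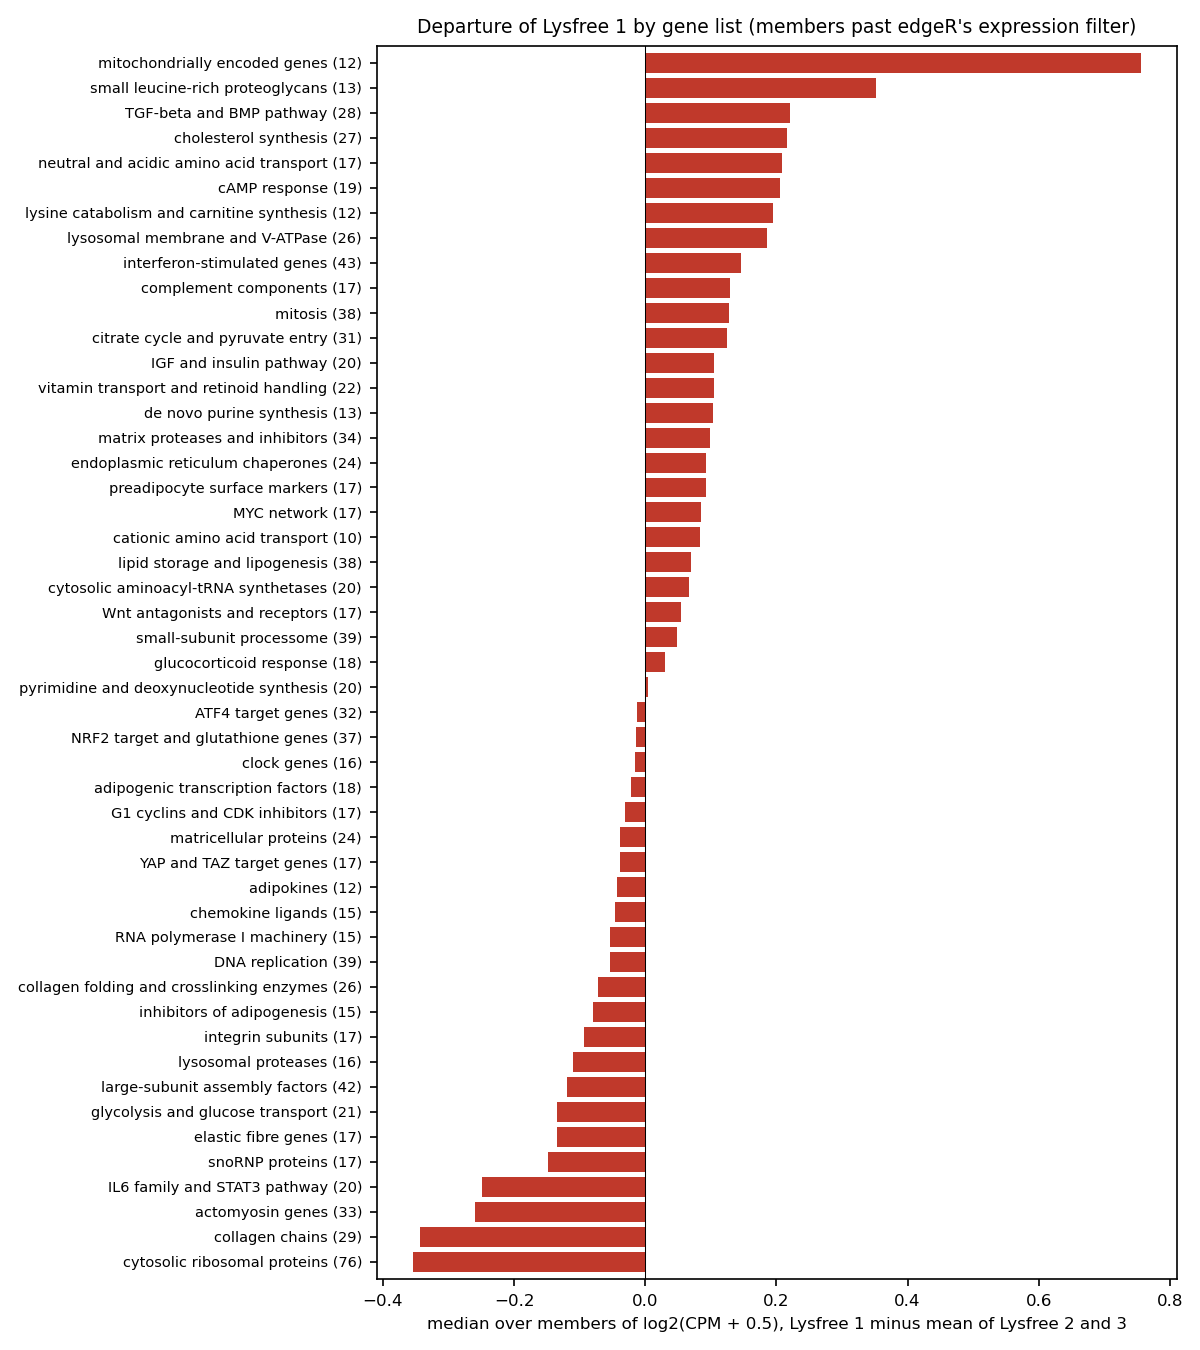
Median over the members of each gene list of log2(CPM + 0.5) in Lysfree 1 minus the mean of Lysfree 2 and 3, for members past the expression filter (their number in brackets), as horizontal bars. Mitochondrially encoded genes lie highest at 0.756 and cytosolic ribosomal proteins lowest at -0.354.

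The cells are labelled as fibroblasts, and fibroblast markers were abundant in both groups. The summed FPKM (fragments per kilobase of gene, scaled to the sequencing depth) of 10 such markers lay between 5212 and 5608 in Undifferentiated and between 1943 and 2036 in Lysfree, with 6 of 10 lower and none higher. Markers of mature adipocytes summed to between 201 and 314 FPKM in Undifferentiated, to between 61.2 and 68.2 in Lysfree and to between 6127 and 6419 in Differentiated, and 6 of 10 were lower in Lysfree than in Undifferentiated and none higher. Undifferentiated 2 was the highest of its group for 9 of these 10 markers. Macrophage markers summed to between 20.03 and 24.45 FPKM in Undifferentiated and between 12.9 and 14.8 in Lysfree (1 of 7 higher, 3 lower), and the defining Ptprc was at 0 in Lysfree. Osteoblast markers summed to between 7.5 and 9.13 FPKM in Undifferentiated and between 3.44 and 4.02 in Lysfree (1 of 8 higher, 3 lower, 4 lower without Lysfree 1). Chondrocyte markers, nearly all of it Sox9, summed to between 26.8 and 32.4 FPKM in Undifferentiated and between 26.9 and 29.0 in Lysfree (1 of 6 lower). Endothelial, epithelial and skeletal muscle markers each summed to under 1 FPKM in every library of both groups, with 2 of 7 endothelial markers higher and no other called. In these bulk cultures, fewer cells of a kind and less RNA per cell cannot be told apart.

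**Figure D2:**
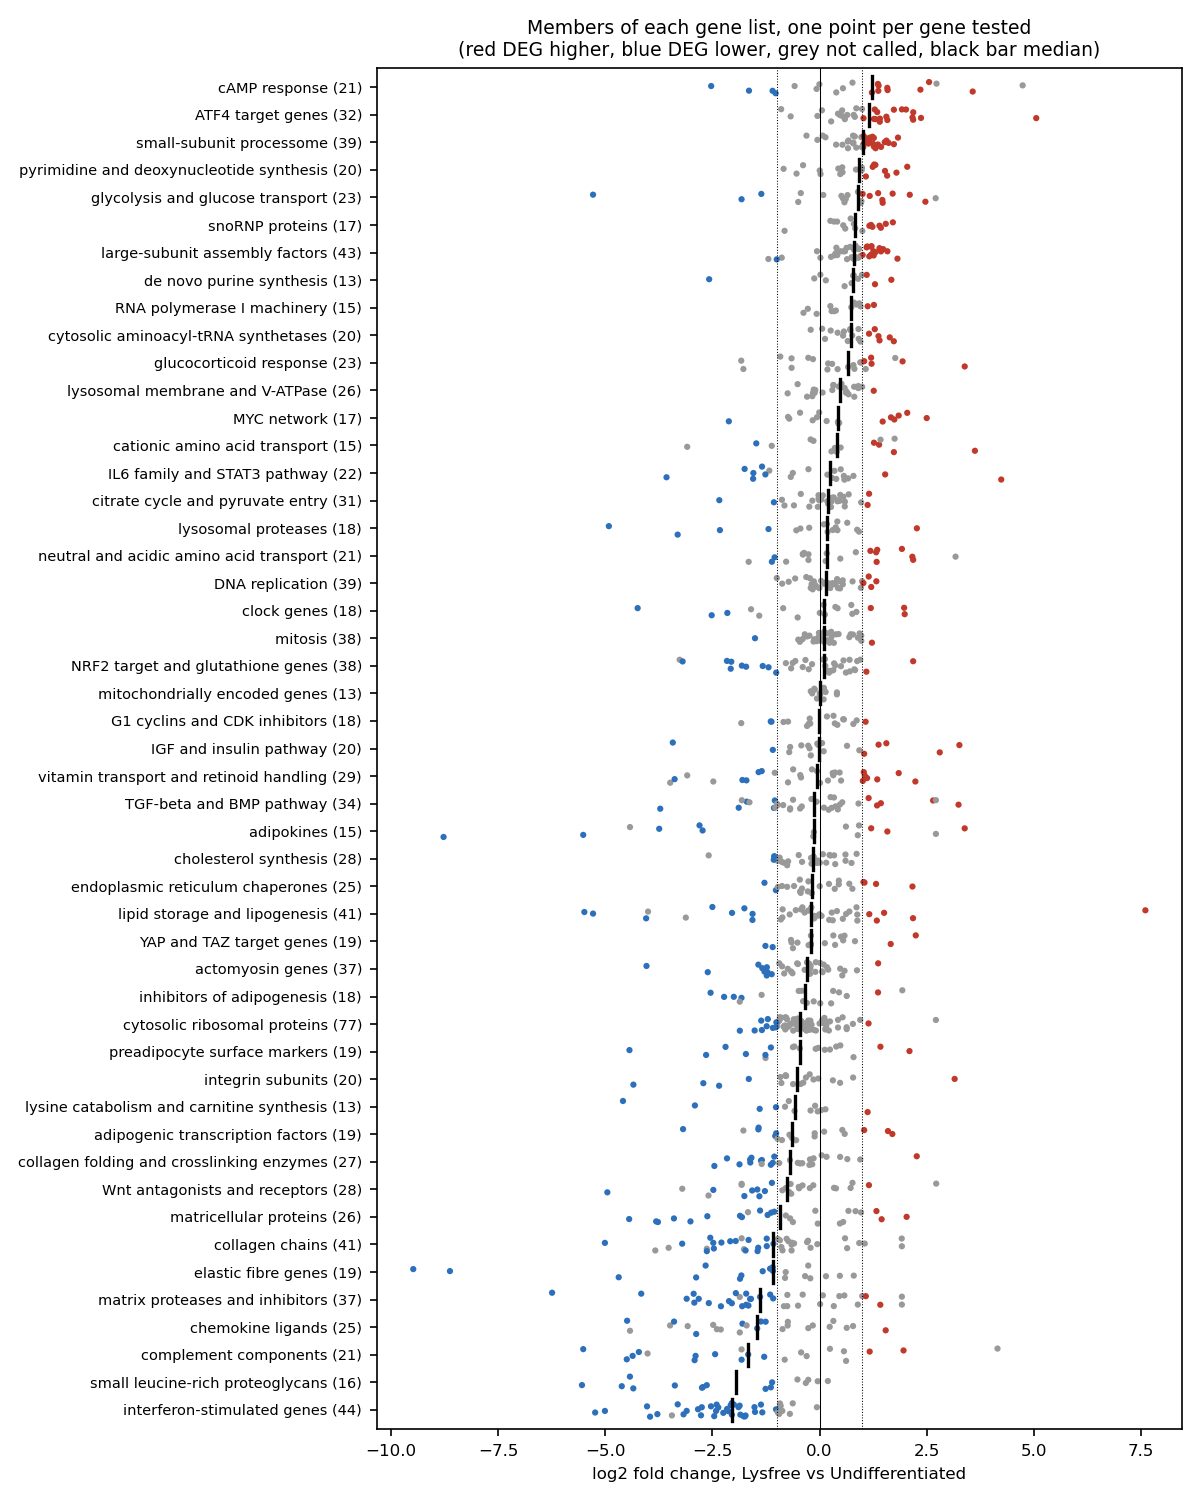
Log2 fold change of Lysfree vs Undifferentiated for each tested member of the 49 gene lists (number tested in brackets), 1 point per gene, with a black bar at the median and dotted lines at a 2-fold change. cAMP response genes, ATF4 targets and the small-subunit processome have the highest medians over the members tested, although that of the cAMP list is 0.73 over members past the expression filter, and interferon-stimulated genes at the bottom with a median of -2.05.

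Gene groups at the ends of that order are shown with the sequences upstream of their genes, and each motif is given with the share of promoters that hold it. Promoter sequences are those of RefSeq on GRCm38.p6, the build of the deposited coordinates, printed 5′ to 3′ on the strand of the gene and ending at or before the start site. Of 27025 gene symbols with a promoter of 300 bases, 250 before and 50 after the start site, 3.99% held the interferon-stimulated response element, searched as GAAANNGAAA on both strands. This motif was added after the values had been seen. It was found in 17 of the 34 interferon-stimulated genes with a promoter in the table (50%). These were 14 of 24 that fell (58.3%) and 3 of 10 that were not called (30%), and the difference was not tested. The element is in capitals below, read as TTTC blocks where it lies on the other strand, for the 5 called members with the largest falls that held it upstream of the start site. Ifit3 and Ifit3b lie side by side and carry the same 124 bases, so reads of these paralogs may be split between them.
Ifit3b (chr19:34607729-34607852, plus strand): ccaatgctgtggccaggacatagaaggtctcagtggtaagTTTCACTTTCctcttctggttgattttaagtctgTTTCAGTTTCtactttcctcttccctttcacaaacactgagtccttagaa
Ifit3 (chr19:34583333-34583456, plus strand): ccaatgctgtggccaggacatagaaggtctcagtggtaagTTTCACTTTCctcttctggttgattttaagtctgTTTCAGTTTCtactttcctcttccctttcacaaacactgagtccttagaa
Gbp3 (chr3:142559959-142560043, plus strand): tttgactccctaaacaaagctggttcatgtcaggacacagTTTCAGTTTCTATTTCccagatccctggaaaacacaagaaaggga
Igtp (chr11:58199482-58199555, plus strand): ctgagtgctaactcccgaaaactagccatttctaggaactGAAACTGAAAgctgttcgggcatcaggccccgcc
Gbp2 (chr3:142620564-142620653, plus strand): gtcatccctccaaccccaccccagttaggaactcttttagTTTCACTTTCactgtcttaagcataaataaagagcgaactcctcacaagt

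The C/EBP-ATF element, which ATF4 binds as a partner of C/EBP proteins, was searched as TGATGNAA on both strands. It was found in 4.51% of all promoters, in 10 of 28 ATF4 target genes (35.7%), and in 5 of 12 cytosolic aminoacyl-tRNA synthetases (41.7%). Among ATF4 targets these were 6 of 15 that rose (40%) and 4 of 13 not called (30.8%). Among synthetases they were 1 of 2 that rose and 4 of 10 not called, and neither difference was tested. The element is in capitals in the 5 called ATF4 targets with the largest rises that held it upstream of the start site. Slc7a11 carried it in both orientations.
Atf3 (chr1:191183396-191183483, minus strand): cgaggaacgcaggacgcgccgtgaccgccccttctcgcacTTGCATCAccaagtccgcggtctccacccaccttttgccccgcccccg
Chac1 (chr2:119351009-119351096, plus strand): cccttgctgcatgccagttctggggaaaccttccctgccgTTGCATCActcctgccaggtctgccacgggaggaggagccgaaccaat
Slc7a11 (chr3:50443614-50443719, minus strand): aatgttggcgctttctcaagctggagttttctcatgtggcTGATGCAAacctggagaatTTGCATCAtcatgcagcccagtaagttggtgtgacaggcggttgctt
Fgf21 (chr7:45615582-45615669, minus strand): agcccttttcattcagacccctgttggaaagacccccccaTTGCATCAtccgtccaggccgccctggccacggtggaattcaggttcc
Asns (chr6:7693210-7693272, minus strand): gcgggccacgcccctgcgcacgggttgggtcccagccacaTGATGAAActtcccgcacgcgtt

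The E-box CACGTG, the site of MYC and related proteins, was found in 8.09% of all promoters. It occurred in 9 of 33 small-subunit processome genes (27.3%), in 8 of 36 large-subunit assembly factors (22.2%), in 2 of 15 RNA polymerase I genes (13.3%) and in none of 14 snoRNP protein genes. In the small-subunit list 31.6% of genes that rose and 21.4% of those not called held the E-box. In the large-subunit list these shares were 33.3% and 17.4%, and neither difference was tested. The 4 called genes with the largest rises that held it upstream of the start site are shown with the E-box in capitals, and of these Wdr46 was not called without Undifferentiated 2, Lysfree 2 or Lysfree 3 (0.98, 0.97 and 0.95). All of these matches describe letters in a window, not binding. The gene lists were written from textbook knowledge, with earlier results of these data known. For known targets of a factor a share above that of all promoters was therefore likely in advance.
Imp4 (chr1:34439668-34439753, plus strand): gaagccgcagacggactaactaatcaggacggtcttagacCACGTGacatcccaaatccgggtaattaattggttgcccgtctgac
Nol11 (chr11:107189382-107189464, minus strand): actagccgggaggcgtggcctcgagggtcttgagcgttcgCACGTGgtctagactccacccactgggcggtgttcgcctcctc
Nop2 (chr6:125131783-125131868, plus strand): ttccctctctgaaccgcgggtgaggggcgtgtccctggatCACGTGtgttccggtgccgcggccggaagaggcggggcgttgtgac
Wdr46 (chr17:33940671-33940722, plus strand): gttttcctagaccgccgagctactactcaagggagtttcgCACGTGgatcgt

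Log2 fold changes below are for Lysfree vs Undifferentiated unless the comparison is named, and a value in brackets after a gene is its log2 fold change. The 10 DEGs with the largest rises among those with at least 5 FPKM in Lysfree and no overlap between groups all stood under 2 FPKM in each Undifferentiated library. Cyp4b1, a fatty acid and xenobiotic oxidase, led them (7.60), and the uncharacterised gene 9130204L05Rik had 3 counts in each Undifferentiated library and a mean of 17.5 FPKM in Lysfree. Ramp3, a partner protein of calcitonin-family receptors, stood at 0.306, 0.297 and 0.0905 FPKM in Undifferentiated 1 to 3 and at 10.1, 10.3 and 9.15 FPKM in Lysfree 1 to 3 (log2 fold change 5.36 ± 0.27 SE, adjusted p = 4.51e-17). Prg4, which encodes the joint lubricant lubricin, stood at 0.164, 0.266 and 0.131 and then 8.08, 8.12 and 8.17 FPKM, and its level in Differentiated was higher still at 18.5, 18.4 and 15.1 FPKM. Rhag, an ammonium channel of red blood cells, rose from 0.12, 0.214 and 0.0801 to 6.98, 4.42 and 4.32 FPKM, and Car6, a secreted carbonic anhydrase, rose from 0.439, 1.15 and 0.688 to 21.8, 27.5 and 24.7 FPKM. The rule that chose these genes required that no library of either group overlapped the other, which held for 43.5% of all genes tested. Their separation is therefore not a result. Prr32 and Avil, the actin regulator advillin, rose by 5.07 and 3.77, and the pseudogene Gm48106 rose by 4.49 on the log2 scale. Ramp3, Car6, Prr32 and Avil were also higher in Lysfree than in Differentiated, by 2.34, 2.62, 3.59 and 3.35, and Prg4 was lower than in Differentiated (-1.03, and -0.98 and not called without Differentiated 1 or Differentiated 2). Rhag and Gm48106 had at most 2 counts in any Differentiated library. Cyp4b1 reached 16.3, 13.6 and 14.0 FPKM in Lysfree against 0.602, 0.785 and 0.686 FPKM in Differentiated.

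The 10 DEGs with the largest falls, chosen in the same way, were Mfap4, Retn, Fbln7, Gm24907, Cpz, Mmp9, Islr, Angpt4, Cfd and Ifit3b. Mfap4, a protein of elastic microfibrils, stood at 21.7, 24.3 and 23.1 FPKM in Undifferentiated and 0, 0.0273 and 0.0536 FPKM in Lysfree. Fbln7, the matrix protein fibulin 7, stood at 9.48, 10.2 and 9.81 and 0.0353, 0 and 0.0319 FPKM, and the gelatinase gene Mmp9 at 9.69, 10.4 and 8.84 and 0.257, 0.0444 and 0.0728 FPKM. Each had at most 16 counts in any Lysfree library. Islr, a mesenchymal secreted protein, fell from 68.7, 78.4 and 70.4 FPKM to 0.763, 0.937 and 1.13 FPKM (log2 fold change -6.21 ± 0.15, adjusted p = 2.39e-25). Angpt4, an angiopoietin, fell from 9.87, 9.72 and 11.1 to 0.171, 0.157 and 0.177 FPKM, and Cpz, a carboxypeptidase that binds Wnt proteins, fell from 4.79, 4.91 and 5.98 to 0.0253, 0.0934 and 0.0459 FPKM. Ptn, the growth factor pleiotrophin, named for its loss in mean CPM, was among the most abundant messages of undifferentiated cells at 1359, 1546 and 1449 FPKM, and it fell to 59.8, 74.4 and 73.0 FPKM (log2 fold change -4.35). The difference between Lysfree and Differentiated was -2.98 for Islr and -2.47 for Angpt4, both called, while those for Ptn and Cpz were -0.99 (adjusted p = 2.48e-08) and -1.54 (adjusted p = 0.128). The snoRNA gene Gm24907, which lies inside Maged2, had no count in any Lysfree library, which with a floor of 3 counts per library puts it at least 4.25-fold lower than in Undifferentiated.

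The largest gains in mean CPM, the counts scaled to a common library size, were those of Fn1, Cct2, Vcan, Hspa8, Mdm2, Pkm, Aldoa, Ldha, the pseudogene Rps2-ps13 and Pgk1, and the largest losses were those of Col1a1, Col1a2, Col3a1, Mmp2, Ptn, Postn, Eef1a1, Sparc, Col6a3 and Cxcl12. Fibronectin Fn1 went from a mean of 4499 to 8668 CPM, a log2 fold change of 0.97 that lay just under the 2-fold threshold (adjusted p = 3.45e-11). The cytosolic chaperones Cct2, a subunit of the chaperonin TRiC, and Hspa8, a constitutive heat shock protein, stood at log2 fold changes of 0.70 and 1.14. Mdm2, the ubiquitin ligase of p53, stood at 0.45, and the elongation factor Eef1a1 at -0.49. Rps2-ps13 is a near copy of Rps2, so its reads cannot be assigned with certainty.

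**Figure D3:**
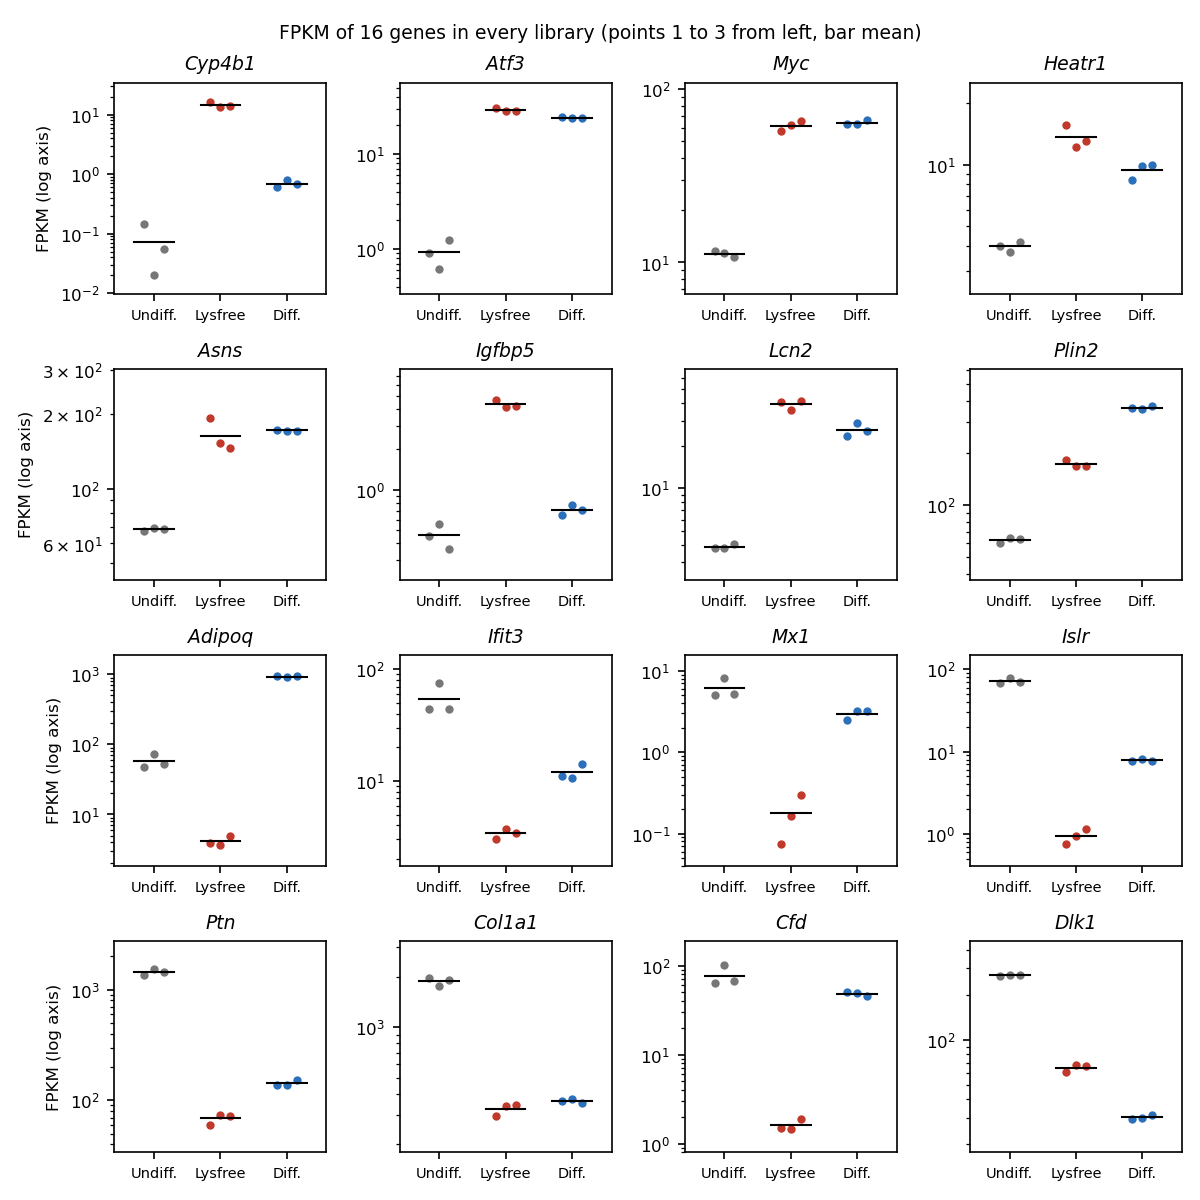
FPKM on a log axis for 16 genes in each library of the 3 groups, with points for replicates 1 to 3 from left to right and a bar at the mean. In all 16 genes the 3 Lysfree libraries lie wholly above or wholly below the 3 Undifferentiated libraries, which held for 43.5% of all genes tested. The genes shown were picked from called genes, and Cyp4b1, Islr and Cfd by a rule that required this separation, so it is not a result.

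Dexamethasone was in the Lysfree medium and not in the Undifferentiated medium. Of 23 glucocorticoid response genes tested, 5 rose and none fell, with a median log2 fold change of 0.67, and 6 rose without Lysfree 1 and 2 fell without Lysfree 2. Lcn2, the iron-scavenging protein lipocalin 2, rose from 3.81, 3.79 and 4.02 to 41.0, 35.5 and 41.1 FPKM (log2 fold change 3.39 ± 0.12, adjusted p = 6.28e-21). Dusp1, a phosphatase of MAP kinases, rose by 1.94, the metallothionein Mt1 by 1.21 and the mTORC1 inhibitor Ddit4 by 1.20. Genes often read as reporters of the receptor did not pass the threshold. Tsc22d3, which encodes GILZ, stood at 26.6, 27.0 and 26.9 FPKM in Undifferentiated and 50.2, 50.7 and 49.3 FPKM in Lysfree (log2 fold change 0.95), Fkbp5, a chaperone of the receptor, at 14.5, 15.1 and 14.4 and 12.2, 13.0 and 13.1 FPKM (-0.15), and Per1 at 0.42. The receptor gene Nr3c1 stood at -0.26. Against Differentiated, where 10.5% of all 24130 genes tested were DEGs lower in Lysfree and 8.14% DEGs higher, 8 of the 23 were lower in Lysfree and 2 were higher, with a median of -0.84. The difference was -1.46 for Dusp1, which was lower in Lysfree, and 0.67 for Lcn2.

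Of 21 cAMP response genes tested, 9 rose and 4 fell, with a median of 1.22. Several members were near 0 FPKM, and the median was 0.73 over those past the expression filter. Rgs2, a brake on G protein signalling, rose from 10.9, 11.5 and 10.1 to 61.1, 49.7 and 49.8 FPKM. Ppargc1a, the coactivator PGC-1α, rose from 2.14, 1.69 and 2.12 to 7.18, 5.03 and 5.04 FPKM (log2 fold change 1.58 ± 0.15). The nuclear receptor gene Nr4a1 rose by 1.59, the prostaglandin synthase gene Ptgs2 by 2.55, the repressor gene Crem by 1.22 (0.97 and not called without Undifferentiated 3) and the phosphodiesterase gene Pde4b by 1.37. The members that fell were the immediate early genes Fos (-1.65) and Fosb (-2.53), the factor gene Creb3l1 (-1.10) and Gem (-1.03), the last a call lost without Lysfree 1 (-0.99), Lysfree 2 or Undifferentiated 1. Against Differentiated, 4 members of the list were higher in Lysfree and 4 were lower (median 0.42). Rgs2 and Pde4b were higher in Lysfree than in Differentiated, by 1.19 and 1.35, and Ppargc1a stood at 1.00 (adjusted p = 3.28e-06). The cAMP response element TGACGTCA was found in 1 of 16 promoters of this list (6.25%), that of Dio2, which was not called, against 2.03% of all promoters.

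Among factors of the adipogenic relay Cebpd rose and Cebpa fell, and Cebpb and Pparg were not called. Cebpd rose from 18.2, 19.6 and 19.7 FPKM to 26.6, 43.2 and 44.5 FPKM (log2 fold change 1.04 ± 0.13, adjusted p = 6.62e-08), a call lost without Lysfree 2 (0.94) or Lysfree 3 (0.91), and Klf4, which acts upstream of Cebpb, rose from 23.7, 23.8 and 23.7 to 49.6, 80.8 and 77.5 FPKM. Cebpb stood at 120.3, 136 and 123 FPKM and then 91.2, 223 and 237 FPKM, so Lysfree 1 lay apart from Lysfree 2 and 3 (log2 fold change 0.59, and 0.88 without Lysfree 1). Cebpa fell from 21.5, 26.1 and 21.2 to 6.32, 8.33 and 10.0 FPKM (log2 fold change -1.43 ± 0.14), and Pparg stood at 12.5, 14.9 and 13.7 and 10.4, 7.32 and 7.66 FPKM (log2 fold change -0.65, adjusted p = 0.000154). In Differentiated, Cebpa stood at 167, 156 and 169.7 FPKM. Over the list of adipogenic transcription factors, 3 of 19 rose and 5 fell (3 fell without Lysfree 3 and 6 without Lysfree 1), with a median of -0.65 (-0.85 without Lysfree 1). Klf5, another activator, rose by 1.70, and Zfp467, which favours fat over bone, fell by 1.42.

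Of 41 lipid storage and lipogenesis genes tested, 5 rose and 8 fell (9 without Lysfree 1), near the shares among all expressed genes, and the median was -0.19. Against Differentiated 32 of the 41 were lower in Lysfree and 1 was higher, with a median of -3.22. The members that rose were Cyp4b1, the fatty acid transporter Cd36, the lipid droplet genes Plin2 and Hilpda, and the lipase inhibitor Angptl4. Plin2, whose protein coats small droplets, rose from 60.2, 63.9 and 63.5 to 181, 167 and 168 FPKM, and Cd36 from 16.1, 17.6 and 15.97 to 97.1, 57.6 and 63.5 FPKM. Cidec, which fuses droplets, fell from 30.3, 46.3 and 33.7 to 13.9, 10.6 and 11.7 FPKM, against 2477, 2421 and 2458 FPKM in Differentiated. Gpd1, which supplies the glycerol backbone, fell by 2.04, and Thrsp, a regulator of lipogenesis, fell by 5.49 on the log2 scale. Fabp4, a fatty acid carrier, and Plin1, a droplet coat protein, stood at -0.22 and -0.87.

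Adipoq, the gene of adiponectin, stood at 47.3, 74.1 and 52.0 FPKM in Undifferentiated and fell to 3.96, 3.61 and 4.96 FPKM in Lysfree (log2 fold change -3.74 ± 0.16, adjusted p = 6.31e-19), against 947, 914 and 936 FPKM in Differentiated. Cfd, the gene of adipsin, fell from 63.9, 101 and 66.3 to 1.48, 1.48 and 1.9 FPKM, and Retn, the gene of resistin, from 6.27, 8.46 and 6.05 to 0, 0 and 0.0326 FPKM. Every Lysfree library lay below every Undifferentiated library for these genes, while 43.5% of all genes tested had no overlap in either direction. Cfd and Retn were also among the largest falls, whose rule required no overlap. Undifferentiated 2 was the highest of its group for Adipoq, Cfd and Retn. Agt, angiotensinogen, and Rarres2, chemerin, completed the falls (-2.80 and -2.73). Lcn2, Fgf21 (1.58) and Apln (1.20) rose. In all, 3 of 15 adipokine genes rose and 5 fell, and the median of -0.13 had the opposite sign without Lysfree 1 (0.34) and without Undifferentiated 2 (0.45).

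Dlk1, the preadipocyte factor Pref-1, fell from 267, 272 and 271 to 61.1, 67.5 and 67.0 FPKM (log2 fold change -2.002 ± 0.093), and its level was higher in Lysfree than in Differentiated by 1.17. Gata2 (-2.23), Klf2 (-1.82) and Wnt6 (-2.54) fell as well, and Runx1 rose (1.36), so that 4 of 18 inhibitors fell and 1 rose (median -0.34, 5 lower without Lysfree 1). Of 19 preadipocyte surface markers 6 fell and 2 rose (median -0.46). Pdgfra, the PDGF receptor of adipocyte progenitors, fell from 46.4, 42.4 and 42.4 to 14.8, 11.9 and 11.9 FPKM, and the aminopeptidase gene Anpep fell by 2.65. Ly6a, which encodes Sca-1, rose instead from 89.5, 101 and 91.5 to 418, 374 and 378 FPKM and was higher than in Differentiated by 2.52, and Cd44 rose by 1.42. Pdgfrb, the other PDGF receptor, stood at -0.59.

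Of 32 ATF4 target genes, 17 rose and none fell (median 1.15). The counts without each library in turn lay between 16 and 18, with 1 fall without Lysfree 2 or Lysfree 3. The share that rose was 5.52% among all genes tested and 8.54% among those past the expression filter, which all 32 passed. Atf3, a stress factor of the same family, rose from 0.915, 0.614 and 1.25 FPKM to 30.6, 28.4 and 28.6 FPKM (log2 fold change 5.06 ± 0.17, adjusted p = 2.68e-21). Chac1, which degrades glutathione, rose from 20.6, 20.4 and 20.6 to 68.9, 101 and 101 FPKM, and Asns, asparagine synthetase, from 67.4, 69.1 and 68.7 to 192, 152 and 146 FPKM. Cth, for the making of cysteine, rose by 2.37, and Psat1 and Shmt2, of serine and one-carbon synthesis, by 1.29 and 1.40. Ppp1r15a, which restores translation after stress, rose by 2.02, and the amino acid carrier genes Slc7a5 and Slc7a11 rose by 1.92 and 2.18. Atf4 itself, which is set mainly at translation, stood at 226, 247 and 237 and 174, 244 and 244 FPKM (-0.05), and Trib3 and Ddit3 at 0.53 and 0.27.

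Against Differentiated, 6 of the 32 were higher in Lysfree and 2 were lower, with a median of 0.23 beside 0.0275 over all genes tested. Asns in Differentiated stood at 173, 171 and 171 FPKM, and its difference between Lysfree and Differentiated was -0.008 (adjusted p = 0.968). Atf3 differed by 0.35 and Chac1 by 0.67, both under 2-fold. Slc7a5 was higher in Lysfree than in Differentiated by 1.10 (0.97 and not called without Lysfree 1), Ppp1r15a by 1.19 and Slc3a2 by 1.33. The sensor kinase gene Eif2ak4 (GCN2), named here after its values were seen, stood at 7.64, 6.73 and 7.37 FPKM in Undifferentiated and 4.02, 3.8 and 3.58 FPKM in Lysfree (log2 fold change -0.88).

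Cytosolic aminoacyl-tRNA synthetases, which load tRNAs with amino acids, had 19 of 20 log2 fold changes above 0 and 6 higher by the test (median 0.74). Wars rose by 1.73, Nars from 109, 110.4 and 108 to 338, 324 and 324 FPKM, Dars by 1.40 and Rars by 1.37. Kars, the synthetase for lysine, stood at 26.4, 28.7 and 27.6 and 39.0, 45.1 and 47.0 FPKM, a log2 fold change of 0.71 under the 2-fold threshold (adjusted p = 5.66e-07). Its level in Differentiated was 46.8, 45.8 and 46.7 FPKM, with a difference of -0.023 ± 0.091 SE.

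**Figure D4:**
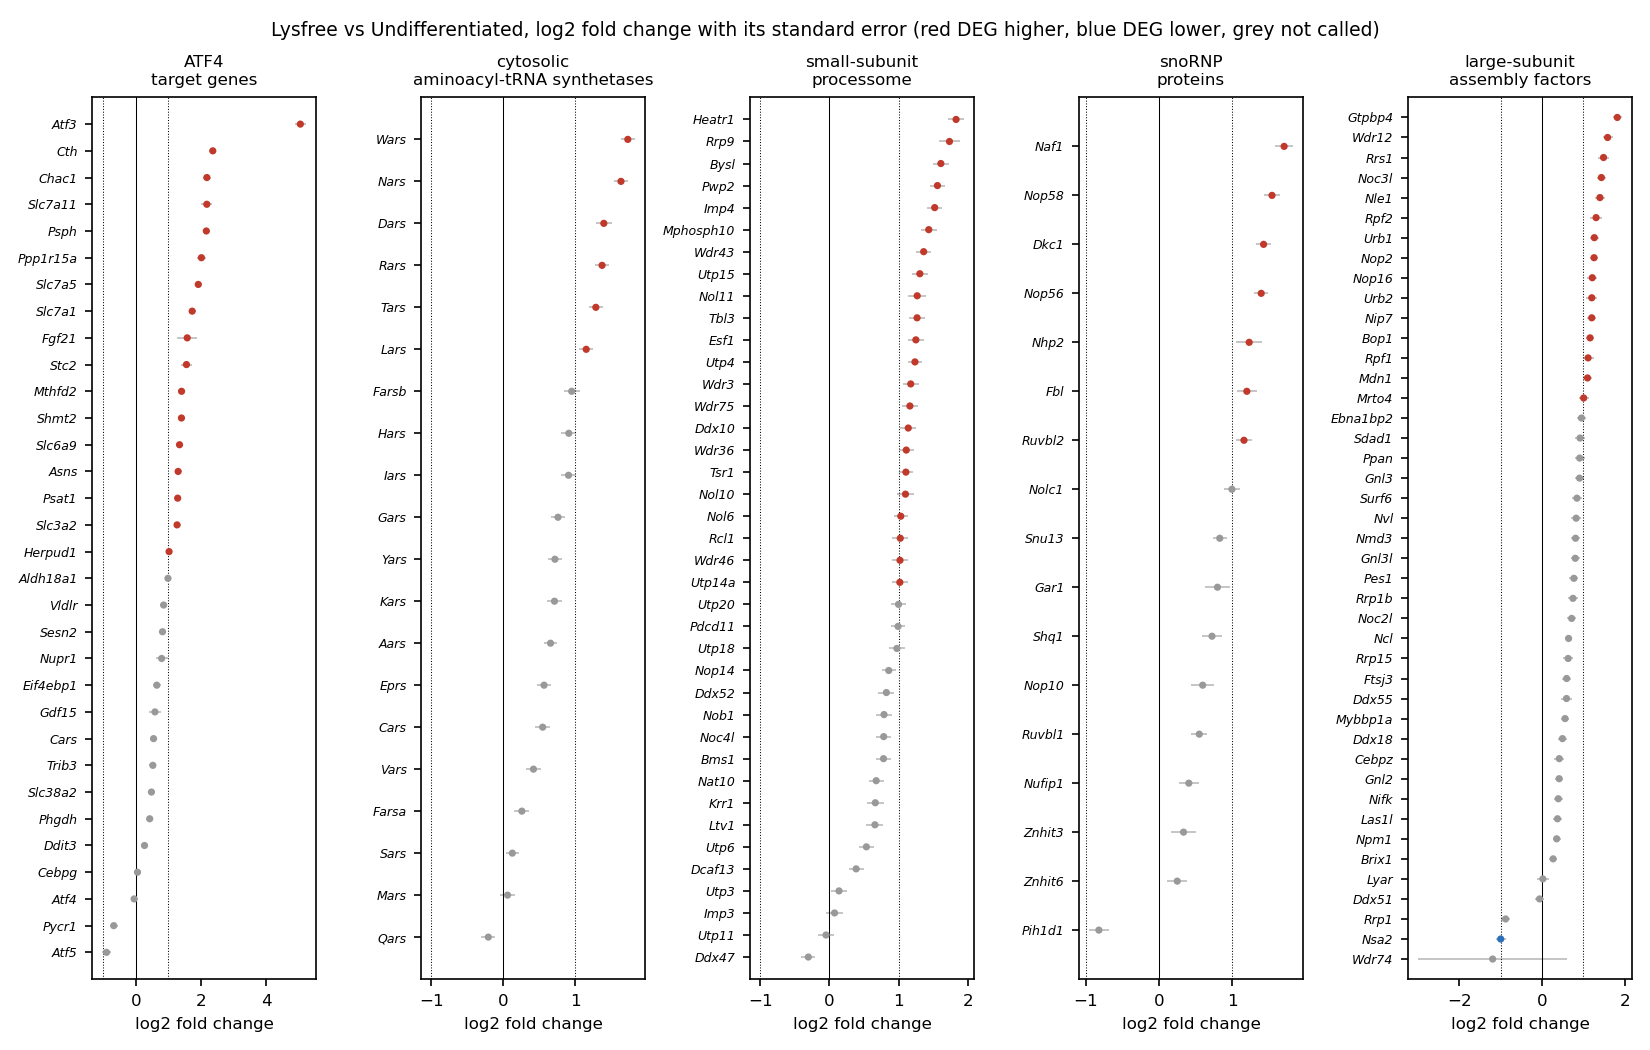
Log2 fold change of Lysfree vs Undifferentiated with its standard error for each tested member of 5 lists, ordered by size, with dotted lines at a 2-fold change either way. Points right of 0 are higher in Lysfree, with Atf3 the farthest at 5.06 and Nsa2, the called fall, just past -1.

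Cationic amino acid transporters are the route of lysine into cells. Slc7a1, the main carrier CAT1, rose from 8.09, 6.62 and 7.43 to 25.8, 22.7 and 22.8 FPKM (log2 fold change 1.73 ± 0.10, adjusted p = 2.93e-15) and stood at 19.8, 21.1 and 19.8 FPKM in Differentiated (difference 0.29 ± 0.086). Slc7a2, the inducible carrier CAT2, rose from 0.17, 0.12 and 0.164 to 2.25, 1.62 and 1.54 FPKM. In Differentiated it stood at 0.0142, 0.0411 and 0.0203 FPKM, with Lysfree higher by 6.13 on the log2 scale. With levels this near 0 FPKM in Differentiated, the size of that difference depends on the prior count. Slc7a7 rose by 1.39 at a low level and Slc3a2, the heavy chain of several carriers, by 1.27. Slc7a3 fell (-1.48), a call lost without Undifferentiated 1 (-1.27) and without Lysfree 2 (-1.09). In all 4 of 15 rose and 1 fell (median 0.40). Of 21 genes listed as carriers of neutral and acidic amino acids 7 rose and 2 fell (median 0.17, 6 higher without Lysfree 1, 1 fall without Undifferentiated 1). Slc43a3, a family member in this list that is not an amino acid carrier, and the glycine carrier gene Slc6a9 rose by 1.32 and 1.34. Slc1a5, the glutamine carrier, stood at 0.85.

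Aass, the first enzyme of the main route of lysine breakdown, had no count in any library. Of 13 lysine breakdown and carnitine synthesis genes tested 4 fell and 1 rose (median -0.59, 3 lower without Lysfree 1), and the rise, that of the shared dehydrogenase subunit Dld, was lost without Lysfree 1 (0.96). Gcdh, the glutaryl-CoA dehydrogenase, fell by 1.02, a call lost without Lysfree 1 (-0.95) and without Lysfree 3 (-0.98). Hykk, of hydroxylysine breakdown, fell by 1.40, and Pipox stood at 0.19, 0.148 and 0.405 FPKM and then at 0.023, 0.0212 and 0.0417 FPKM. Pipox was not called without Undifferentiated 3 (-2.40). Bbox1, the last enzyme of carnitine synthesis, stood at 0.256, 0.3 and 0.142 FPKM and then at 0, 0.0238 and 0 FPKM. Pipox and Bbox1 both had at most 2 counts in every Lysfree library.

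Many ribosome assembly genes rose. Myc, the factor that drives them in many cells, rose from 11.6, 11.3 and 10.8 FPKM to 57.0, 62.4 and 65.0 FPKM (log2 fold change 2.50 ± 0.11, adjusted p = 6.45e-19). In the small-subunit processome, which folds and cuts the rRNA precursor, 22 of 39 rose and none fell (median 1.02, 19 without Lysfree 1). Heatr1 rose from 3.99, 3.72 and 4.16 to 15.6, 12.2 and 13.0 FPKM, Rrp9 by 1.73, Bysl by 1.61 and Pwp2 by 1.56. Among snoRNP proteins, which guide rRNA modification, 7 of 17 rose (median 0.83, 9 without Lysfree 1), with Nop58 from 8.5, 8.36 and 8.31 to 26.8, 22.6 and 21.6 FPKM, Naf1 at 1.71, Dkc1 at 1.43 and Nop56 at 1.40. Among large-subunit factors 15 of 43 rose and 1 fell (median 0.81, 17 higher without Lysfree 1), and the fall, that of Nsa2, was lost without Lysfree 1 (-0.87), without Undifferentiated 2 (-0.98) and with library sizes alone. Gtpbp4 rose from 5.88, 5.2 and 5.14 to 21.2, 17.0 and 17.2 FPKM, and Wdr12, Rrs1 and Noc3l by 1.58, 1.48 and 1.43. Of 15 genes of RNA polymerase I, which transcribes rRNA, 2 rose (median 0.74), the catalytic subunit genes Polr1a by 1.27 and Polr1b by 1.12. The share that rose among all genes past the expression filter was 8.54%.

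Few of these genes differed by 2-fold between Lysfree and Differentiated. The median difference between Lysfree and Differentiated was 0.29 for the small-subunit list, 0.13 for snoRNP proteins and 0.037 for large-subunit factors, with 2, 1 and 0 members higher in Lysfree by the test. Myc in Differentiated stood at 62.5, 63.1 and 66.0 FPKM, and its difference was 0.0095 ± 0.089 (adjusted p = 0.954). The differences for Heatr1, Gtpbp4 and Nop58 were 0.60, 0.63 and 0.87, all under 2-fold.

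The ribosomal proteins themselves did not rise with the factors that assemble them. Of 77 tested, 9 fell and 1 rose, with a median of -0.45. Among all genes past the expression filter 13.1% fell and 8.54% rose, so the falls were no more frequent than in that background. Without Lysfree 1, which was low for 11 of the 77, 5 fell and 2 rose with a median of -0.39. Rps28 stood at 216, 366 and 286 FPKM and then 29.0, 99.5 and 102 FPKM, with Lysfree 1 the lowest. These genes have many processed copies, so reads may be shared or lost among them. In the MYC network, Odc1, the first enzyme of polyamine synthesis, rose by 1.85, and Nme1, a nucleotide kinase, by 2.05, while the MYC antagonist gene Mxd4 fell by 2.12. In all 6 of 17 rose and 1 fell (median 0.43).

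Several nucleotide synthesis genes rose, and few division genes were called. Of 20 pyrimidine and deoxynucleotide genes 8 rose and none fell (median 0.92, 9 higher without Lysfree 1), among them Uprt (1.79), the CTP synthase gene Ctps (1.58) and Rrm2, a subunit of ribonucleotide reductase (1.53). Of 13 purine genes 3 rose and 1 fell (median 0.78). Atic, of the last steps, rose by 1.67 and Ppat, of the first committed step, by 1.29, and the muscle-type enzyme gene Adssl1 fell by 2.58. Of 39 DNA replication genes 4 rose (median 0.15, 5 higher without Lysfree 1), near the 8.54% that rose among all genes past the expression filter. Mcm2, of the replicative helicase, rose from 14.8, 14.4 and 15.3 to 31.4, 35.5 and 32.2 FPKM and was higher than in Differentiated by 1.19, and Chaf1b rose by 1.32. Most replication genes called against Differentiated went the other way from Mcm2, with 8 lower in Lysfree and 2 higher (median -0.59). Of 38 mitosis genes 1 rose, Anln (1.22), and 1 fell, Ccnb2 (-1.51), with a median of 0.11. The proliferation marker Mki67 stood at 2.28, 1.63 and 1.78 FPKM in Undifferentiated, 1.49, 1.51 and 1.49 FPKM in Lysfree and 8.08, 8.64 and 7.08 FPKM in Differentiated. Against Differentiated, 29 of the 38 mitosis genes were lower in Lysfree (median -1.73).

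Of 18 cyclin and CDK inhibitor genes, 1 rose, Cdk6, a call lost without Lysfree 1 (0.86), and Cdkn2c (-1.14) and Rbl2 (-1.12) fell (median -0.024, too near 0 for a direction). Ccnd1 stood at 0.87, Cdkn1a at 0.17 and Cdkn1b at -0.84.

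Of 23 glycolysis and glucose transport genes tested 8 rose and 3 fell (median 0.90, 9 higher without Lysfree 1). Hk2, which traps glucose in the cell, rose from 6.42, 6.11 and 6.2 to 24.3, 27.6 and 26.1 FPKM, and Slc16a1, the lactate carrier MCT1, from 13.8, 12.6 and 12.8 to 81.3, 63.3 and 65.2 FPKM. Pfkp, Ldha and Pgk1 rose by 1.70, 1.47 and 1.37. Ldhb fell from 35.2, 38.9 and 33.8 to 11.7, 9.55 and 8.3 FPKM and the muscle-type gene Pfkm fell by 1.36, and Slc2a4, the insulin-regulated carrier GLUT4, fell to at most 1 count in each Lysfree library. Against Differentiated the median was -1.29. Of 31 genes of the citrate cycle 2 rose and 2 fell (median 0.20, 1 higher and 3 lower without Lysfree 1). These shares were not above the 8.54% and 13.1% among all genes past the expression filter. Idh3a rose by 1.15, the rise of Dld was lost without Lysfree 1, and Pdk2, an inhibitor of pyruvate entry, fell by 2.34. None of the 13 mitochondrially encoded genes was called (median 0.02, and -0.39 without Lysfree 1, whose mitochondrial share was the highest). Of 28 cholesterol genes 3 fell, Nsdhl, Fdps and Mvk (-1.07, -1.06 and -1.06), of which Fdps was not called without Undifferentiated 2 (-0.77) and Mvk not without Lysfree 1 (-0.97), and none rose (median -0.16, 6 lower without Lysfree 3), and the median against Differentiated was -2.82.

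None of 41 collagen chain genes rose and 16 fell (median -1.08, 15 lower without Lysfree 1). Col1a1, of the main fibrillar collagen, fell from 1977, 1766 and 1917 to 295, 341 and 345 FPKM, and Col1a2 (-1.66), Col3a1 (-1.45) and the transmembrane collagen gene Col23a1 (-5.01) fell as well. The basement membrane gene Col4a1 stood at -0.87. Small leucine-rich proteoglycans, which space collagen fibrils, had the lowest median of the matrix lists at -1.95, with 11 of 16 lower and none higher. Fmod, fibromodulin, fell from 4.29, 3.63 and 4.06 to 0.0344, 0.0952 and 0.109 FPKM, Ogn, osteoglycin, from 335, 323 and 339 to 76.4, 42.8 and 36.6 FPKM, and lumican, Lum (-4.43), and decorin, Dcn (-2.74), fell too, whereas biglycan, Bgn, stood at -0.32. Of 19 elastic fibre genes 11 fell and none rose (median -1.10). Elastin, Eln, fell by 4.69, and fibrillin 1, Fbn1, stood at -0.22.

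Of 27 enzymes and chaperones that fold or crosslink collagen, several of which act on its lysines, 11 fell and 1 rose (median -0.69). Lox, lysyl oxidase, fell from 484, 434 and 485 to 204, 169 and 161 FPKM (log2 fold change -1.35 ± 0.096, adjusted p = 1.81e-13), and Differentiated cells held far less, 20.8, 20.7 and 18.6 FPKM. Its relative Loxl3 (-2.16), the prolyl hydroxylase P3h3 (-1.87) and the foldase Fkbp14 (-2.46) fell as well. The lysyl hydroxylase genes Plod1, Plod2 and Plod3 were not called, at -0.14, 0.65 and 0.16. Pcolce2, an enhancer of procollagen cleavage, rose by 2.27. Of 26 matricellular genes 12 fell and 3 rose (median -0.92). Periostin, Postn (-3.01), nidogen 2, Nid2 (-4.44), and Sparcl1 (-3.40) fell, while versican, Vcan, rose by 1.45, Thbs3 by 1.33 and Nov by 2.03.

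Of 37 matrix proteases and inhibitors 20 fell and 2 rose (median -1.39, 3 higher without Lysfree 1). Mmp2, a gelatinase, fell from 2030.2, 1984 and 2013 to 413, 379 and 391 FPKM, and Mmp14, its activator, fell by 1.39. Mmp3 (-4.16), Adamts12 (-3.10) and Mmp23 (-2.94) fell, and Mmp28 and Plaur, the urokinase receptor gene, rose by 1.42 and 1.08, the latter not called without Undifferentiated 3 (0.96). The inhibitor genes Timp1 and Timp3 stood at -0.83 and 0.33. Mmp2 was higher in Lysfree than in Differentiated by 1.74, Lox by 3.21 and Ogn by 4.91, whereas the difference for Col1a1 was -0.081 ± 0.076 (adjusted p = 0.451). The matrix lists were mixed in this respect. Against Differentiated, 14 proteases and inhibitors were higher in Lysfree and 9 were lower. These numbers were 8 and 9 for collagen chains, 4 and 4 for small leucine-rich proteoglycans, and 6 and 5 for elastic fibre genes.

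Of 20 integrin genes 4 fell and 1 rose (median -0.53). Itgb7 rose by 3.15, and Itgb1, the common β subunit, stood at -0.032. Itgbl1, an integrin-like gene in this list that does not encode a subunit, fell by 2.35. Of 37 actomyosin genes 9 fell and 1 rose (median -0.29). Acta2, smooth muscle actin, fell from 57.4, 56.7 and 57.7 to 22.7, 23.6 and 24.5 FPKM, the kinase gene Mylk (-2.61) and the actin nucleator gene Lmod1 (-4.04) fell, and Tagln2 rose by 1.37. The CArG box, the site of SRF, searched by its consensus on both strands, was found in 7 of 30 actomyosin promoters (23.3%) against 1.81% of all. It was in 2 of 8 actomyosin promoters of genes that fell (25%) and 5 of 21 of those not called (23.8%). The glucocorticoid response element was found in 3 of 19 glucocorticoid list promoters (15.8%), including that of Mt1, against 0.537%. Of 19 YAP and TAZ target genes 2 rose, Tead4 (2.24) and Ankrd1 (1.66), and 2 fell, F3 (-1.26) and Arhgef17 (-1.10), with a median of -0.20.

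Interferon-stimulated genes had the largest share of falls among the 49 lists. All 44 had a negative log2 fold change, 34 fell by the test and none rose (median -2.05, 36 lower without Lysfree 1). Ifit3, of the IFIT proteins that bind viral RNA, stood at 44.5, 75.8 and 43.7 FPKM in Undifferentiated and at 3.03, 3.73 and 3.45 FPKM in Lysfree (log2 fold change -3.96 ± 0.17, adjusted p = 8.44e-19). Mx1, an antiviral GTPase, stood at 4.98, 8.19 and 5.25 and 0.0752, 0.166 and 0.3 FPKM, and Isg15, a ubiquitin-like modifier, at 104, 205 and 108 and 27.7, 43.5 and 41.0 FPKM. Undifferentiated 2 was the highest of its group for these genes and for 41 of the 44, and without it 34 fell with a median of -1.86. Mature adipocyte markers were highest in the same library, and its part in the result was not tested beyond this. Every Lysfree library lay below every Undifferentiated library for 42 of the 44, while 43.5% of all genes tested had no overlap in either direction. The sensors Ddx58, which encodes RIG-I, and Ifih1 fell too (-1.52 and -1.34). So did the signalling factor Irf7 (-2.75), the guanylate-binding genes Gbp2 and Gbp3 (-2.46 and -3.17), and the immunoproteasome genes Psmb8 and Psmb9 (-2.77 and -3.10). B2m, the shared chain of MHC class I, stood at 1838, 1740.4 and 1874 and 952, 885 and 844 FPKM (-0.98), just short of 2-fold.

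**Figure D5:**
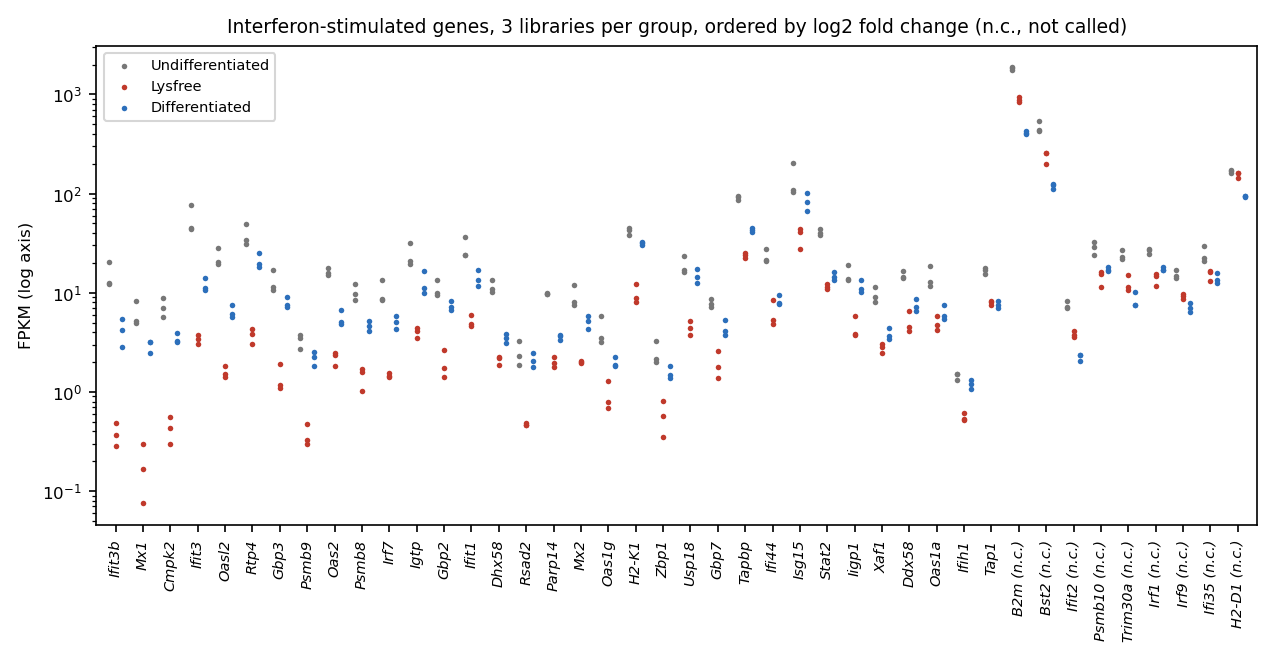
FPKM on a log axis of 42 interferon-stimulated genes with a mean of at least 1 FPKM in Undifferentiated, 1 point per library, coloured by group and ordered by log2 fold change. Lysfree points lie below Undifferentiated points in every called gene, while 43.5% of all genes tested had no overlap in either direction. The Differentiated mean lies between the other means in 34 of all 44.

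Against Differentiated, 26 of the 44 were lower in Lysfree and 2 were higher, with a median of -1.20. Ifit3 stood at 11.1, 10.7 and 14.2 FPKM in Differentiated, a difference of -1.75 ± 0.16 (adjusted p = 7.96e-09), and Mx1 differed by -3.95 and Isg15 by -1.09. B2m and Bst2, which traps budding virus, were the members higher in Lysfree, by 1.19 and 1.05. The call for Isg15 was lost without Lysfree 1 or Differentiated 3 (both -0.93), and that for Bst2 without Lysfree 2 (0.98) or Lysfree 3 (1.00).

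Of 21 complement genes tested 10 fell and 2 rose (median -1.67). C1s1, a protease of the classical pathway, fell from 99.0, 97.9 and 101 to 5.6, 4.64 and 5.24 FPKM, and C1ra, its partner, fell by 2.92. C3, the central component, fell from 151, 147 and 149 to 31.1, 22.1 and 26.7 FPKM, and it stood at 154, 157 and 146 FPKM in Differentiated (Lysfree vs Differentiated -2.45). Masp1 rose by 1.96. C1qbp, a mitochondrial protein despite its name, rose by 1.17. Cfd belongs to this list as well.

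Of 25 chemokine genes tested 7 fell and 1 rose (median -1.46). Cxcl12, which holds stem cells in their niche, fell from 289, 298 and 295 to 36.4, 40 and 39.7 FPKM and stood at 40.2, 40.6 and 41.0 FPKM in Differentiated (difference -0.0053 ± 0.083). The eosinophil attractant Ccl11 (-4.49) and Ccl5 (-1.80) fell too. Ccl7, a monocyte attractant, rose from 37.9, 38.7 and 37.7 to 148, 85.1 and 90.4 FPKM and was higher than in Differentiated by 2.44, and Ccl2 stood at -0.16. In the IL6 family 2 of 22 rose and 6 fell (median 0.24). Il6 rose from 0.29, 0.188 and 0.257 FPKM to 5.37, 3.8 and 4.35 FPKM (log2 fold change 4.24 ± 0.26, adjusted p = 3.22e-15) and stood at 0.293, 0.31 and 0.382 FPKM in Differentiated. Osmr, a receptor of oncostatin M, rose by 1.53. The receptor genes Cntfr (-3.57), Il11ra1 (-1.75) and Lifr (-1.55) fell, and Socs3, a feedback inhibitor, stood at 0.18.

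Of 20 IGF and insulin pathway genes 5 rose and 2 fell (median -0.025, too near 0 for a direction, 4 higher and 1 lower without Lysfree 1). Igfbp5 rose from 0.453, 0.562 and 0.364 to 4.63, 4.13 and 4.21 FPKM, Irs2 by 1.38, and Igf1 fell from 1.73, 1.45 and 1.71 to 0.149, 0.132 and 0.156 FPKM. Of 34 TGF-β and BMP genes 5 rose and 5 fell (median -0.13, 3 lower without Undifferentiated 3 and 7 lower with a median of -0.29 without Lysfree 1). Among all genes past the expression filter 8.54% rose and 13.1% fell. Inhba, the activin A subunit, rose from 2.53, 2.17 and 2.6 to 16.7, 14.9 and 12.7 FPKM and was higher than in Differentiated by 2.59, the BMP antagonist gene Nog rose by 3.24, and Tgfb3 (-1.89) and Fst, follistatin (-1.70), fell. Of 28 Wnt antagonist and receptor genes 8 fell and 1 rose (median -0.75, 5 lower without Lysfree 2), with Sfrp2 at -2.48, Fzd2 at -1.76 and Fzd7 at 1.15.

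Of 18 lysosomal proteases 4 fell and 1 rose (median 0.18, 2 higher without Lysfree 1), with the cystatin gene Cst3 at -2.33 and the cathepsin gene Ctsf at -3.31, and of 26 lysosomal membrane genes 1 rose (2 without Undifferentiated 1, Lysfree 2 or Lysfree 3), the proton pump gene Atp6v1c1 (1.26, median 0.48). Of 38 NRF2 target and glutathione genes 9 fell and 2 rose (median 0.10), and the falls were mostly glutathione transferases such as Gsta4 (-3.20) and Gstm1 (-2.16), with Nqo1 at -1.81. Of 29 vitamin transport and retinoid genes 7 rose and 5 fell (median -0.06, 4 higher without Lysfree 1), with the retinoic acid hydroxylase gene Cyp26b1 at 1.85. Of 25 chaperones of the endoplasmic reticulum 4 rose and 2 fell (median -0.19, 2 higher without Lysfree 1 or Undifferentiated 3 and 1 lower with library sizes alone), with Atf6 at 1.32, Pdia4 at -1.29 and Hspa5, the main chaperone, at 0.76. Of 18 clock genes 3 rose and 3 fell (median 0.11), with Nfil3 at 1.97 and its counterparts Dbp and Tef at -2.52 and -2.15.

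Some of the genes named above lie partly over a neighbouring gene, and since the strand setting of the counting was not given in the sources used here, reads from the shared stretch cannot be told apart. They are Aldoa, Avil, Bysl, Ccnd1, Cdkn1a, Cebpb, Cebpd, Col1a2, Col4a1, Cth, Dbp, Ddit3, Dkc1, Fkbp14, Gm24907, Heatr1, Igtp, Il11ra1, Irf7, Loxl3, Masp1, Mfap4, Mmp28, Nid2, Nop56, Nsa2, Ogn, Pfkm, Pfkp, Pkm, Plod3, Ppat, Prg4, Psmb9, Rarres2, Rbl2, Rps28, Rrp9, Shmt2, Slc6a9, Slc7a7, Tgfb3, Thbs3, Timp1, Vcan, Wars and Wdr12.

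The lysine content of the encoded proteins was described from GENCODE vM21 coding sequences. Over 15485 protein-coding genes tested with a coding sequence of at least 50 codons, a median of 5.56% of codons encoded lysine. The median was 5.75% over the 1083 DEGs that rose and 4.97% over the 1706 that fell, and 5.61% over genes that were not DEGs. Cytosolic ribosomal proteins were the richest list at 12.2%, followed by large-subunit assembly factors at 10.1%, while elastic fibre genes held 2.87%, collagen chains 4.89% and interferon-stimulated genes 6.99%. Among lists that mostly rose, ATF4 target genes held 4.52% and small-subunit processome genes 7.72%. These shares describe sequences, and genes of a list are not independent.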

How the data were processed

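RNA from 3T3-L1 cells was sequenced as paired-end poly A libraries. Per the submitters' processing notes, reads were aligned to mm10 with HISAT2 2.0.5 and counted per gene with featureCounts 1.5.0-p3. The strand setting and annotation release were not given in the sources used here. The authors deposited raw counts per gene, which were tested here, and FPKM, which the authors normalised for length and sequencing depth and which are used here as levels. Columns not used numbered 0. Some genes are not reported here by name, but they stay in the tests and in the counts of lists.

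The comparison of 3 Lysfree with 3 Undifferentiated libraries was fitted over all genes with a count in any of the 6 libraries by edgeR 4.0.16 (R 4.3.3), with TMM scaling and the quasi-likelihood test, as was that of 3 Lysfree with 3 Differentiated libraries. All p-values are adjusted by Benjamini-Hochberg, and a DEG had an adjusted p under 0.05 and a 2-fold change or more. Standard errors came from the F statistic. A count of 0 was set against a floor of 3 counts. Both comparisons share the Lysfree libraries. P-values measure the spread between these samples, and a permutation test of 3 against 3 samples could not go below 0.1. The edgeR steps were checked on simulated data. The alternatives numbered 17 and included DESeq2 1.42.0 and limma 3.58.1.

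The groups and gene lists were chosen with earlier results of these data known. Genes were named by rule: key members of each list, up to 4 DEGs of a list with the largest change and at least 1 FPKM, the 10 largest rises and falls of non-overlapping DEGs with at least 5 FPKM, and the 10 largest rises and falls in CPM. Others were named after their values were seen: Adssl1, Agt, Angptl4, Apln, B2m, Bgn, Bst2, C1qbp, Cidec, Creb3l1, Ddx58, Dio2, Eif2ak4, Fdps, Fgf21, Fosb, Fzd7, Gbp2, Gbp3, Gem, Hilpda, Hykk, Ifih1, Igtp, Imp4, Maged2, Masp1, Mmp14, Mmp28, Nol11, Nop2, Nov, Nsa2, Osmr, Pfkm, Pipox, Plaur, Plin2, Plod3, Ppp1r15a, Psat1, Psmb8, Psmb9, Ptprc, Rarres2, Rps2, Runx1, Shmt2, Slc7a3, Slc7a7, Sox9, Thbs3 and Wdr46.

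Lysine codons were counted in the longest GENCODE coding sequence of each gene, which replaced the planned protein table, and motifs were searched in RefSeq promoters.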

Additional observations from a re-analysis of the deposited data

How the results depend on the processing

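Among the DEGs of Lysfree vs Undifferentiated, 3426 in all (1324 higher, 2102 lower), the number was 2244 (853 and 1391) over genes with at least 10 counts in every library, 1596 (544 and 1052) when tested against a 2-fold change, 8428 (4316 and 4112) with no fold threshold, and 1474 (557 and 917) by limma on log2(FPKM + 1). Leaving out each library in turn gave between 3093 and 3448 DEGs, between 1197 and 1349 higher and between 1883 and 2115 lower. The median over genes past the expression filter was 0.0249 with TMM, 0.00756 with median-of-ratios size factors and 0.056 with library sizes alone, and higher and lower DEGs numbered 1280 and 2149 with the size factors and 1415 and 2023 with library sizes alone. Lysfree vs Differentiated gave between 4120 and 4485 DEGs when each library was left out in turn, beside 4507 with all. With the replicate number as a block there were 3179 DEGs (1207 higher, 1972 lower). Samples of the same number correlated at 0.139, 0.168 and -0.0785 in their deviations. Lysfree 1 and Lysfree 2 correlated best with their own number and Lysfree 3 did not. With 3 samples per group, of which Lysfree 1 stood apart, these values cannot decide whether the numbers pair the samples. No called value of a named gene changed sign under any of the alternatives run. Low counts limit the genes near 0 FPKM, whose fold changes depend on the prior count.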
